A study of Hordeum vulgare with 2 samples.

Results

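Enzymes of the methionine cycle, of polyamine synthesis and of amino acid metabolism were followed through their cysteine peptides in barley embryo extract treated with thioredoxin (Trx). They were selected by words in the deposited protein names, 12 in all, and 7 of the words found a peptide. This gave 11 peptides from 8 protein entries, of 210 different peptides in the whole series. Of these, 10 were among the 199 peptides of the run with a thiol block after Trx, 7 were among the 93 of the control run, and 6 were in both. No peptide was named methionine synthase, methyltetrahydropteroyltriglutamate methyltransferase, cysteine synthase, glutamine synthetase or glutamate decarboxylase, which says only that none was listed in these tables.

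The material was protein from embryos dissected out of seeds of the malting barley cultivar Barke, taken 48 h into germination. In both runs free thiols had been alkylated with iodoacetamide (IAM) at extraction, and portions were left for 1 h with and without Trx, which opens disulfide bonds of its target proteins by reduction. The blocked run then received IAM again, at 10 mM, and the control run did not, before all other cysteines were reduced and labelled with an isotope-coded affinity tag (ICAT), light in the Trx arm and heavy in the arm without Trx. The deposited value is the heavy/light ratio of a peptide, so a cysteine that Trx opened and IAM then closed has a ratio above 1 in the blocked run, and each value is followed by the authors' SD within the run. Each run is 1 sample, with no replicate extract, so every difference given here describes these samples and no p-value was computed. One label field of the control says that Trx was not given, whereas its full description has an arm with Trx and an arm without, which is how the control is read here.

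The methionine cycle supplies methyl groups to the cell. S-adenosylmethionine synthetase joins methionine to ATP to make the methyl donor S-adenosylmethionine, methyltransferases use it and release S-adenosylhomocysteine, and adenosylhomocysteinase splits that product, which inhibits methyltransferases, into adenosine and homocysteine. Spermidine synthase draws on the same donor, after its decarboxylation, to lengthen putrescine into spermidine. Aminotransferases and glutamate dehydrogenase move nitrogen between glutamate, other amino acids and organic acids, and the germinating embryo is fed with amino acids from the breakdown of storage protein.

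The measured items are the tryptic peptides. Those of up to 14 residues are shown whole, 5 of the 11, to place the cysteine that took the tag. They are written from the amino end, in the order of the results below, and their sequences are the ones deposited.

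Adenosylhomocysteinase: FDNLYGCR

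Spermidine synthase 1: HSSVEQIDICEIDK

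Aspartate aminotransferase: DDDGRPVVLDCVR

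Alanine aminotransferase 2: EVLALCDHPDLLQR

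Ketol-acid reductoisomerase: GVSFMVDNCSTTAR

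The other 6 peptides are longer and are named by their protein and length. All 11 hold 1 cysteine, so each ratio belongs to a single residue. The cysteine stands at residue 7 of 8 in the short adenosylhomocysteinase peptide and at residue 16 of 17 both in a further adenosylhomocysteinase peptide and in that of S-adenosylmethionine synthetase 1, so that the methionine cycle peptides of the blocked run all carry it directly before the arginine or lysine where trypsin cut. Of the 23 other peptides of the blocked run with a cysteine in that place, 11 lay above the limit set below (47.8%). The cysteine is the first residue of the 16-residue AGD2 peptide and residue 5 of 17 in that of glutamate dehydrogenase. The aspartate aminotransferase peptide with an arginine inside it is cut completely all the same, because trypsin does not cleave before proline.

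Most entries were matched through other plants. S-adenosylmethionine synthetase 1 (METK1_HORVU) and alanine aminotransferase 2 (ALA2_HORVU) are barley entries, and aspartate aminotransferase is a barley expressed-sequence consensus (TC131667) named after the millet Panicum miliaceum. Adenosylhomocysteinase is the wheat entry SAHH_WHEAT, spermidine synthase 1 the rice entry SPD1_ORYSJ, glutamate dehydrogenase the maize entry DHE3_MAIZE, ketol-acid reductoisomerase the Arabidopsis entry ILV5_ARATH, and AGD2 a rice entry. In the blocked run both adenosylhomocysteinase peptides also matched 5 further entries, the spermidine synthase peptide 7 and the AGD2 peptide 4, so members of a family that share the peptide cannot be told apart. For its adenosylhomocysteinase peptides the control table lists no further entry.

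The first comparison asked which of these cysteines had lost light label after Trx and the block. A limit was set at 1.24, which is the mean plus 2 SD of the log2 ratio over all control peptides. In the blocked run 8 of the 10 peptides lay above it, against 50.8% of all peptides of that run, and the other 2 lay within the limits. Their median ratio was 1.46 (range 1.01 to 1.94), beside 1.249 over all 199 peptides and 1.236 over the 189 that are not of the set. Above a ratio of 1.5 there were 5 of the 10, from 3 enzymes, against 32.7% of all peptides. In the control run 0 of the 7 lay above 1.24, where 2.15% of all control peptides did. That control share is small by construction, since the control set the limit.

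The 2 highest ratios of the set belonged to enzymes of the methionine cycle. The short adenosylhomocysteinase peptide, FDNLYGCR, had 1.94, rank 7 of the 199 peptides, but its SD is listed as 0, so that its error is unknown, and it had no control value. The 17-residue peptide of the same enzyme had 1.525 ± 0.10 with the block and 1.09 ± 0.09 without it. The values of that peptide stood apart by more than their SDs, with lower and upper ends of 1.425 and 1.18. A further adenosylhomocysteinase peptide, of 27 residues, was listed in the control run alone, at 1.082 ± 0.04, close to the control value of the 17-residue peptide.

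S-adenosylmethionine synthetase 1 had 1.757 ± 0.09 with the block, rank 20 of 199, and 1.149 ± 0.08 without it. Both values were the highest of the set among peptides with an SD above 0, and the control value was rank 10 of 93. In the blocked run its SD range lay above the ranges of 7 of the 8 other peptides of the set that have one. The exception was the 17-residue peptide of aspartate aminotransferase.

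Spermidine synthase 1 had 1.406 ± 0.08 with the block and 0.952 ± 0.06 without it. It was the only enzyme of the set with a control ratio under 1. The other 6 of the 7 control values lay above 1, at 1.05 to 1.149, while 52.7% of all control peptides did. The control median of the set was 1.085 and that of the run 1.01, so the set lay somewhat high without the second IAM. All 7 control values were still within the limits.

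In the blocked run the SD ranges of aspartate aminotransferase and alanine aminotransferase 2 overlapped, and that of AGD2 lay below them. The aspartate aminotransferase peptides, from the enzyme that exchanges the amino group between aspartate and glutamate, had 1.52 ± 0.06 for DDDGRPVVLDCVR and 1.563 ± 0.15 for the 17-residue peptide. In the control run the same peptides had 1.085 ± 0.07 and 1.05 ± 0.11, so that in each run the values of this enzyme's cysteines overlapped within their SDs. Alanine aminotransferase 2, which links alanine and pyruvate to glutamate, had 1.397 ± 0.16 with the block and 1.109 ± 0.13 without it. AGD2, known in Arabidopsis as the diaminopimelate aminotransferase of lysine synthesis, had 1.01 ± 0.09 in the blocked run, rank 173 of 199. Its range lay below those of 7 of the 8 other peptides with an SD and overlapped that of glutamate dehydrogenase.

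Glutamate dehydrogenase, which interconverts glutamate with 2-oxoglutarate and ammonium, had 1.184 ± 0.11, just inside the limit. Ketol-acid reductoisomerase, an enzyme of valine and isoleucine synthesis, had 1.273 ± 0.14, just outside it. Their SD ranges, 1.074 to 1.294 and 1.133 to 1.413, both cross the limit of 1.24, and neither peptide nor that of AGD2 had a control value, so which side of the limit these 2 enzymes belong to is not resolved by the deposited error.

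**Figure D1:**
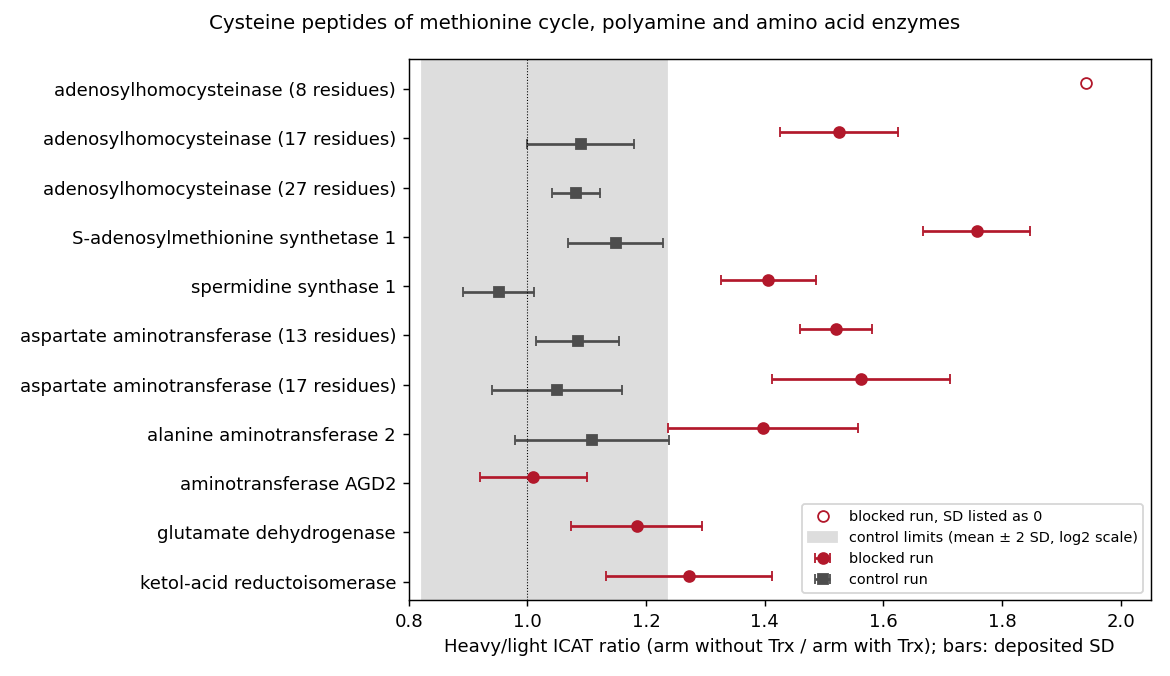
Heavy/light ICAT ratio (horizontal axis) of each of the 11 peptides (rows), in the blocked run (red circles) and the control run (grey squares), with the deposited SD as bars; the open circle has an SD listed as 0 and the grey band runs between the control limits of 0.822 and 1.24. All 7 control values lie in the band, and 8 of the 10 blocked values lie to its right.

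Within the blocked run no step in the order of the set from S-adenosylmethionine synthetase 1 down to AGD2 exceeded the SDs, since the ranges of neighbours overlapped throughout. Farther apart in the order, some ranges did not overlap: of the 36 pairs among the 9 peptides with an SD, 20 had ranges apart. These pairs share peptides, and S-adenosylmethionine synthetase 1 and AGD2 each took part in 7 of the 20. The share over pairs of all peptides was not computed, so the count is not a trait of the set. In the control run 3 of 21 pairs had ranges apart, and each of them set spermidine synthase 1 below a methionine cycle peptide or DDDGRPVVLDCVR of aspartate aminotransferase. SDs were of the usual size for these runs, with a median of 8.91% of the ratio over the set and 8.10% over all peptides of the blocked run.

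Adenosylhomocysteinase and aspartate aminotransferase allow cysteines listed under 1 entry to be compared. The adenosylhomocysteinase peptides also matched 5 further entries, so they may not come from 1 protein. The adenosylhomocysteinase ratios in the blocked run differed 1.27-fold, rank 9 among the 27 entries with several peptides, whose median span was 1.16-fold. The aspartate aminotransferase ratios differed 1.03-fold, rank 23. With the SD of FDNLYGCR listed as 0, whether the adenosylhomocysteinase cysteines differ beyond error cannot be read from the tables.

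The second comparison set each cysteine against itself, with the block and without it. All 6 peptides measured in both runs had the higher ratio in the blocked run, as did 98.8% of all shared peptides. The SD ranges were apart for 5 of the 6, against 62.3% of the 69 shared peptides for which neither SD is listed as 0. S-adenosylmethionine synthetase 1 had the largest difference, 1.53-fold ± 0.13 (SD propagated from both runs), followed by the 17-residue aspartate aminotransferase peptide at 1.49-fold ± 0.21 and spermidine synthase 1 at 1.48-fold ± 0.13. DDDGRPVVLDCVR of aspartate aminotransferase had 1.40-fold ± 0.11 and the 17-residue adenosylhomocysteinase peptide 1.40-fold ± 0.15. Alanine aminotransferase 2 had the smallest, 1.26-fold ± 0.21, and was the peptide with overlapping ranges, its lower end of 1.237 in the blocked run meeting an upper end of 1.239 in the control run.

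The place of spermidine synthase 1 in the order of the set depended on the control. Among the shared peptides of the set its blocked ratio was next to the lowest, yet its difference between the runs was among the 3 largest, because its control ratio was the lowest. The SD ranges of the 6 differences all overlap, however, so their order is not resolved by the deposited error. The median difference of the set was 1.44-fold (6 peptides), beside 1.24-fold over all 82 shared peptides. The differences of the set ranked from 17 to 40 among the 82, and thus none was among the 16 largest.

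The blocked run as a whole lay higher than the control run, with a ratio of their median values of 1.24. With each run divided by its own median, the 6 peptides still had the higher value in the blocked run, where 50.0% of the shared peptides did, but the median difference of the set was 1.16-fold. A share near 50% follows from the scaling, since the median difference over all shared peptides was also 1.24-fold. The SD ranges then stayed apart for 3 peptides, against 30.4% of shared peptides. These were S-adenosylmethionine synthetase 1 (1.24-fold), spermidine synthase 1 (1.20-fold) and DDDGRPVVLDCVR of aspartate aminotransferase (1.13-fold). The 17-residue peptides of aspartate aminotransferase (1.20-fold) and adenosylhomocysteinase (1.13-fold) had differences of like size but overlapping ranges. Alanine aminotransferase 2 had 1.02-fold, also with overlapping ranges. Since the median of the blocked run also holds what Trx and the block did to all its peptides, this scaling removes any change they share.

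**Figure D2:**
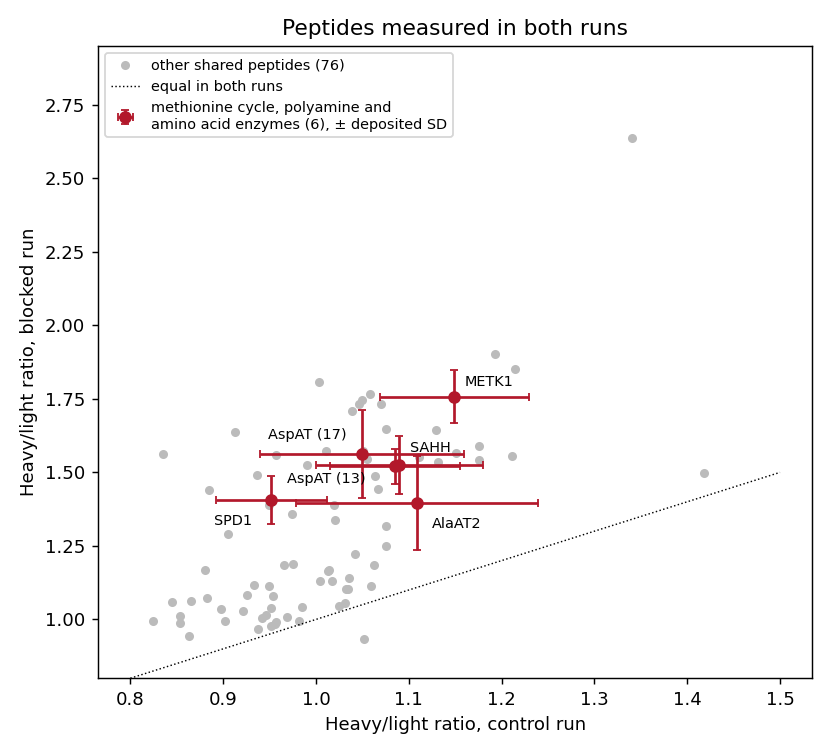
Heavy/light ratio in the control run (horizontal axis) and in the blocked run (vertical axis) for the 82 peptides in both runs; red points are the 6 of the set with the deposited SDs as bars, grey points the other 76, and the dotted line marks equal ratios. METK1 is S-adenosylmethionine synthetase 1, SAHH adenosylhomocysteinase (17 residues), SPD1 spermidine synthase 1, AspAT aspartate aminotransferase with the peptide length, and AlaAT2 alanine aminotransferase 2; all 6 lie above the line.

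As an apparent loss of light label in the Trx arm, 100 × (1 − light/heavy), the blocked ratios of the set amount to a median of 31.5%, beside 19.9% over all peptides of the run. FDNLYGCR of adenosylhomocysteinase had 48.5%. S-adenosylmethionine synthetase 1 had 43.1%, or 40.01% to 45.9% over its SD range, and AGD2 had 0.990%, with a range of -8.70% to 9.09%. The AGD2 range thus included no loss at all.

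Taking the control ratio as the starting point changed these figures. The loss became 34.6% for S-adenosylmethionine synthetase 1, which had an apparent loss of 12.97% in the control run, and 28.5% in place of 34.4% for the 17-residue adenosylhomocysteinase peptide. For spermidine synthase 1 it went from 28.9% up to 32.3%, which is still within the SD range of the first value, 24.6% to 32.7%. No error was computed for the losses that take the control ratio into account. On this scale the 6 shared peptides lay between 20.6% and 34.6%.

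**Figure D3:**
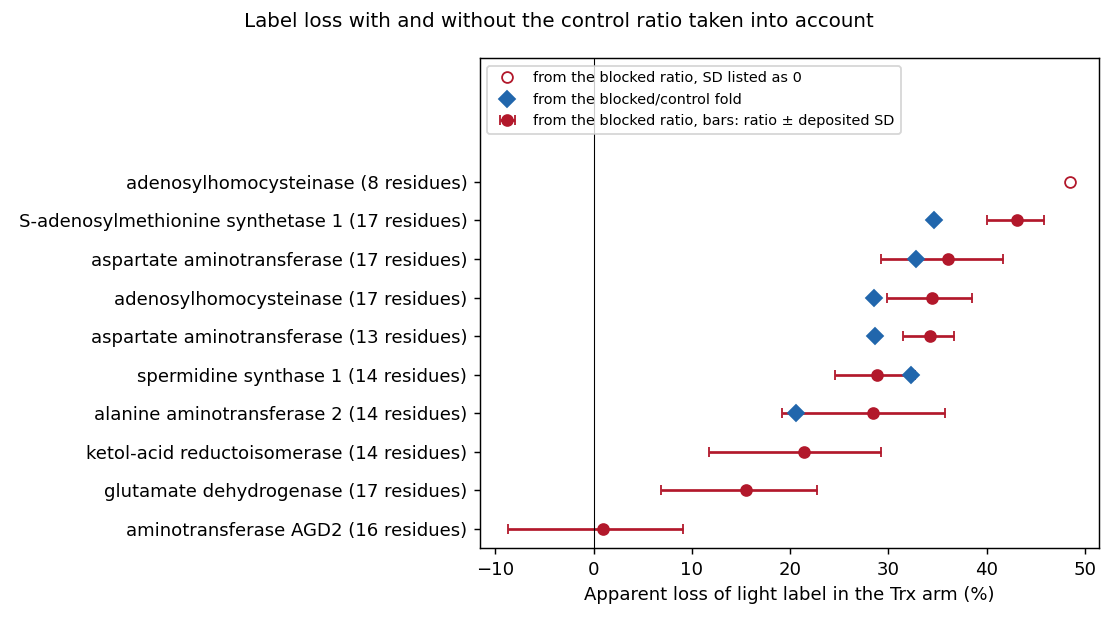
Apparent loss of light label in percent (horizontal axis) for the 10 peptides of the blocked run (rows), from the blocked ratio (red, bars from the ratio ± deposited SD; open circle, SD listed as 0) and from the blocked/control fold where both runs have a value (blue diamonds). The red values run from 0.990% for AGD2 to 48.5% for the short adenosylhomocysteinase peptide, and the blue diamonds from 20.6% to 34.6%.

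Other enzymes of amino acid, methyl group and nucleoside metabolism were gathered by a list of further words in the names. The list found 7 peptides, each from a different entry, all in the blocked run and 1 of them also in the control run. Of these 5 lay above the limit, where 50.8% of all peptides did, and the median ratio of the 7 was 1.44. Their identification scores, explained below, were 24 to 84 in the blocked run (median 32, beside 41 over all peptides). Aspartate-semialdehyde dehydrogenase had a score of 25, argininosuccinate lyase 26 and caffeoyl-CoA O-methyltransferase 24, near the lowest accepted score of 20. Adenosine kinase 1, which clears the adenosine that adenosylhomocysteinase releases, had 1.439 ± 0.06. Caffeoyl-CoA O-methyltransferase, a user of S-adenosylmethionine in lignin synthesis, had 1.336 ± 0.11. Both values lay above the limit, although the SD range of the methyltransferase reached down to 1.23.

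Aspartate-semialdehyde dehydrogenase, an enzyme of the pathway that leads from aspartate to lysine, threonine and methionine, had 1.615 ± 0.08. Betaine aldehyde dehydrogenase, which makes glycine betaine, had 1.449 ± 0.09. Argininosuccinate lyase of arginine synthesis had 1.445 ± 0.15 with the block and 1.067 ± 0.09 without it, a difference of 1.35-fold ± 0.18 with ranges apart. Serine hydroxymethyltransferase, which makes glycine from serine and loads one-carbon units onto folate, had 1.183 ± 0.14 and lay within the limits. The remaining peptide, of glycyl-tRNA synthetase, is an enzyme of translation that the word glycine took in, and its 1.236 ± 0.10 fell just short of the limit before rounding.

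**Figure D4:**
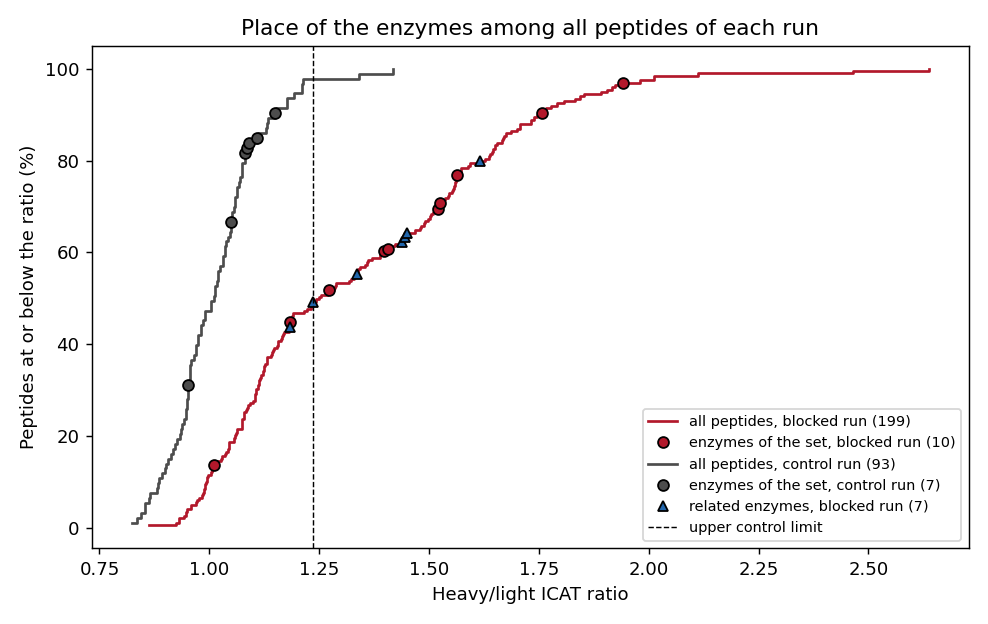
Share of peptides at or below a given heavy/light ratio (vertical axis, percent; horizontal axis, ratio) for all 199 peptides of the blocked run (red line) and all 93 of the control run (grey line), with the enzymes of the set as circles on the line of their run and the 7 related enzymes as blue triangles on the blocked line. The dashed line is the upper control limit of 1.24, with 8 of 10 red circles and 5 of 7 triangles to its right.

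The identifications of the set were of middling score. Mascot scores, which grade the match of a spectrum to a peptide, were 32 to 67 (median 47) in the blocked run, where all peptides had 20 to 118 (median 41). They were 33 to 63 (median 47) in the control run, where all had 21 to 90 (median 39). The light and heavy tags of a cysteine differ by 9.0302 Da in the calculated masses. Of the 6 shared peptides 4 were identified in opposite tag forms in the runs and the other 2, those of S-adenosylmethionine synthetase 1 and spermidine synthase 1, in the same form. Words for proteins of the starchy endosperm (hordein, beta-amylase and alpha-amylase inhibitor) found 4 peptides in the blocked run, at 1.11 to 1.92, 3 of them above the limit, where 50.8% of all peptides lay, and 1 in the control run at 1.075. The embryo extract thus held some protein named for another seed tissue, and its part in the ratios of the set was not tested.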

How the data were processed

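Tagged peptides were captured on avidin and measured on a QSTAR mass spectrometer, per the labels' protocols. Per the series description, peak lists came from the Mascot script 1.6b20, searches covered Swiss-Prot 54.6 (green plants), a public protein collection and the barley gene index (HvGI) 9.0 with a tolerance of 0.2 Da, and MSQuant 1.4.3a12 gave the ratios after inspection of spectra by hand, from a Mascot score of 20. The deposited heavy/light ratio is the authors' average for a peptide, with their SD in ratio units. The number of measurements behind it, and any centring, are not given in the sources used here. The deposited score is Mascot's ion score. An SD listed as 0 (27 peptides of the blocked run, 10 of the control run) was read as unknown.

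With Python 3.11.15, pandas 2.3.3 and numpy 2.4.6, the tables were joined on peptide sequence and ratios taken to log2. Limits were the control mean ± 2 SD over its 93 peptides (0.822 to 1.24). The fold between runs is the ratio of ratios, with relative SDs added in quadrature. SD ranges are ratio ± SD, and have no stated coverage. Every peptide of the set is named, and related enzymes came from a word list. The set and the lists were chosen with earlier results of these data known. Genome positions were not used here.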

Additional observations from a re-analysis of the deposited data

How the results depend on the processing

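Of 38 values under alternatives, 28 stayed within 1.5 times the count or within the spread between peptides, and 10 did not. Of the medians, including the median fold, 0 turned direction, and a count could not turn by the rule used. The medians of the set could not change with single-cysteine peptides alone, because all its peptides hold 1 cysteine. In the set, limits of 3 SD left 7 of the 8 high peptides, and 5 exceeded the highest ratio of the control (1.418) or a fixed ratio of 1.5, since a higher limit leaves fewer. Of all 199 peptides of the blocked run, 83 lay above the limit of 3 SD and 77 above 1.418. The control count of 0 for the set could not fall. Over all peptides, a ratio of 1.5 was exceeded by 65 with the block and 0 without it, and 55 of the 106 peptides with a score of at least 40 lay above the limit of 1.27 that control peptides of such scores set. The main count was 101 of 199. The rule compares counts and not shares, so the smaller number of peptides can alone place this value among the 10. The control count of 2 over all peptides was 1 with limits of 3 SD, 1 with single-cysteine peptides alone and the limit of 1.22 that they set, and 0 above its own highest peptide. With each run divided by its median, the median fold of the set was 1.16 in place of 1.44, and SD ranges were apart for 3 peptides in place of 5. The last of these, and the 3 other values from limits set without the peptides of the set or from peptides with an SD above 0, were chosen after seeing the data. No paired analysis was possible because each group holds 1 sample. The number of measurements behind a ratio is unknown, so no depth limit can be given.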

Other observations

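Calibrated mass errors of the set differed between enzymes. In the blocked run they were 23.3 ppm for ketol-acid reductoisomerase, the most positive of all 199 peptides, 17.3 ppm for both S-adenosylmethionine synthetase 1 and DDDGRPVVLDCVR of aspartate aminotransferase, and 12.9 ppm for AGD2, where 90% of all peptides lay between -13.2 and 14.7 ppm. In the control run S-adenosylmethionine synthetase 1 had -0.987 ppm and DDDGRPVVLDCVR 15.7 ppm. The 17-residue adenosylhomocysteinase peptide was identified with oxidised methionines in both runs.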
